A study of Homo sapiens with 12 samples.

Results

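The MAX network is the set of transcription factors that pair with MAX or its relative MLX. The 10 genes of it read here were MYC, MAX, MXI1, MXD1, MXD3, MXD4, MNT, MGA, MLX and MLXIP. Every probe set whose only platform gene symbol was one of these names was taken, which gave 27 probe sets for 9 of the 10 genes, among 54613 probe sets tested. The 3 probe sets of MXD4 carry a second symbol, so no expression value of MXD4 is given. The samples were cultures of MDA-MB-231, an established line of mesenchymal-like, hormone receptor-negative breast carcinoma cells, grown in normal culture with no treatment. Each of 3 groups had 4 arrays, lettered A to D. The control group (shGFP) carried a retroviral hairpin against GFP, a protein these cells do not make. The shHIF group carried retroviral hairpins against HIF1a and HIF2a, the oxygen-regulated subunits of the hypoxia-inducible factors. The Sharp1 group overexpressed Sharp1, a basic helix-loop-helix repressor encoded by BHLHE41, and was compared with shGFP, the only control group used here. The submitters call the 4 arrays of a group biological replicas. The labels do not say which vector carried Sharp1, how many clones were used or how the replicas were cultured.

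MYC and MAX form a heterodimer that binds E-box DNA, typically CACGTG, and activates genes of growth, ribosome production and metabolism. MXI1, the MXD proteins and MNT also pair with MAX at E-boxes, but recruit SIN3 and histone deacetylases and repress, so they oppose MYC, while MLX pairs with the glucose-sensing factors MLXIP and MLXIPL. MXI1 is a known target of HIF through which hypoxia can restrain MYC, and in triple-negative breast cancer MYC is often highly active.

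The values are log2 signals, and a probe set is called when its adjusted p is below 0.05 in limma's moderated test, adjusted over all 54613 probe sets by Benjamini-Hochberg. Each comparison is written as a difference of mean log2 signal, and fold sizes are on the linear scale. Array medians lay between 5.38 and 5.44. To check the labels, BHLHE41 (223185_s_at) rose from a mean of 3.89 in shGFP to 9.24 in Sharp1, and 231243_s_at rose by 1.59. The BHLHE41 probe set brightest over the 12 arrays (221530_s_at) fell by 2.06, from 6.62 to 4.56. The remaining one (231242_at) was not called, at -0.13. HIF1A signal in shHIF was 60.2% of the shGFP level and EPAS1, which encodes HIF2a, was at 13.8%. EPAS1 was at 61.1% in the Sharp1 group too. By their means over the 12 arrays, all 7 markers of mesenchymal-like basal carcinoma cells lay above the median probe set of 5.41 (10.4 to 14.5 in shGFP), as did 4 of 7 luminal markers (in shGFP ESR1 6.27, ERBB3 6.89, GATA3 8.57 and KRT8 11.6) but not PGR, FOXA1 and CDH1. All 3 leukocyte markers measured lay below it, as did 3 of 5 fibroblast markers, but not COL1A1 and DCN (7.57 and 5.32 in shGFP). The hybridisation spike-in signal was 9.99 and 10.02 in shHIF arrays A and D against 10.4 to 10.6 in the other arrays, so the shHIF counts are also given without those arrays. Sharp1 array B had a ribosomal RNA probe signal of 12.2 against 13.1 to 13.5 in the other arrays. The actin signal difference between 3′ and 5′ probe sets, a sign of RNA integrity, was 0.90 to 0.94 in shHIF arrays A to C and 0.62 in D, against 0.59 to 0.74 in shGFP and 0.56 to 0.85 in Sharp1. The part of these differences in the results was not tested beyond leaving out arrays.

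In the Sharp1 arrays 8 of the 27 member probe sets were called, 1 higher and 7 lower, which is 29.6% beside 18.1% of all probe sets (9.82% higher, 8.26% lower). In shHIF 9 were called, 6 higher and 3 lower, which is 33.3% beside 22.2% of all probe sets (10.7% higher, 11.5% lower). Between Sharp1 and shHIF directly 13 were called, 3 higher and 10 lower in Sharp1, which is 48.1% beside 29.1% (15.3% higher, 13.8% lower). The 4 arrays of one group lay wholly apart from the 4 of the other for 9, 8 and 15 of the 27, beside 21.6%, 22.3% and 28% of all probe sets. In such bulk RNA, fewer cells making a transcript and less of it per cell cannot be told apart. These comparisons share arrays with each other, so their counts are not independent. The median difference over the 27 was -0.11 in Sharp1 and 0.046 in shHIF, beside -0.0076 and 0.024 for all probe sets. With 1 probe set per gene, 6 of 9 genes were called in Sharp1 (1 higher, 5 lower), 5 of 9 in shHIF (4 higher, 1 lower) and 7 of 9 in the direct comparison (1 higher, 6 lower). Of all 19775 genes 27.2% were called in Sharp1 (15.3% higher, 11.8% lower), 30.8% in shHIF (17.6% higher, 13.2% lower) and 38.4% directly (18% higher, 20.4% lower). Without shHIF arrays A and D, 10 member probe sets were called in Sharp1, 6 in shHIF and 12 directly. The Sharp1 count dropped to 5 without shGFP array A and to 6 without Sharp1 array B. With dim probe sets left out, 9 of 23 member probe sets were called in Sharp1, beside 9683 of all 27307. In shHIF 9 of 23 were called beside 11335 of 27307, and directly 14 of 23 beside 14108. The shHIF share of the members was then below that of all probe sets, and the Sharp1 share was near it.

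**Figure D1:**
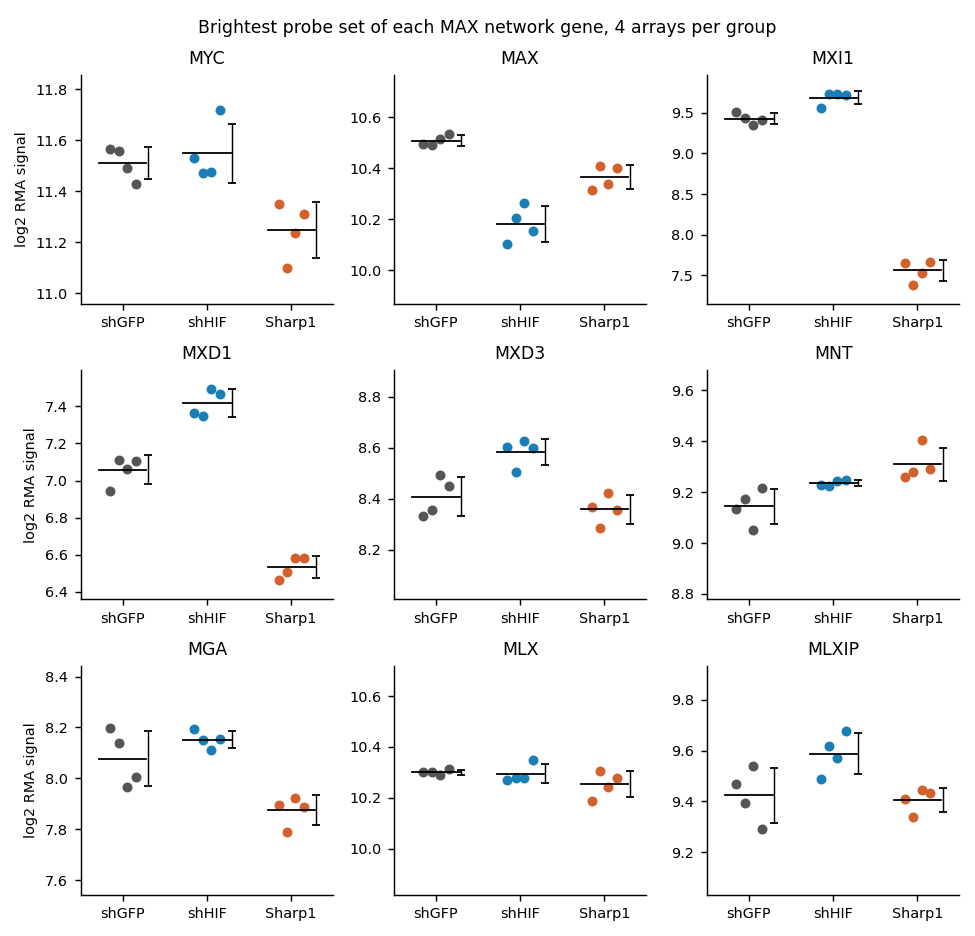
Log2 signal of the brightest probe set of each of the 9 network genes in each array (points), with the group mean (line) and SD (bar), for 4 arrays per group, and with a y axis of its own in each panel. MXI1 and MXD1 sit lowest in all 4 Sharp1 arrays, MAX sits lowest in all 4 shHIF arrays, and the 3 groups of MLX overlap.

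MXI1, the MAX-binding repressor of MYC targets that HIF is known to induce, was the member with the largest change. Its single probe set (202364_at) read 9.51, 9.43, 9.35 and 9.41 in shGFP arrays A to D, and 7.65, 7.39, 7.54 and 7.67 in Sharp1. In shHIF it read 9.56, 9.73, 9.73 and 9.72. All 4 Sharp1 arrays lay far below every other array, and all 4 shHIF arrays lay above every shGFP array, with shHIF array A the lowest of the shHIF arrays. MXI1 fell by 1.86 in Sharp1 (SE 0.06, limma adjusted p = 1.87e-16), 3.64-fold, which ranked 33 among 19775 genes from the largest fall. In shHIF it rose by 0.26 (SE 0.06, limma adjusted p = 0.00419), 1.20-fold. The rise was 0.31 (limma adjusted p = 0.00525) without shHIF arrays A and D. Sharp1 lay 4.35-fold below shHIF directly (limma adjusted p = 1.46e-17). Sharp1 array B was the lowest array, and without it the Sharp1 difference was -1.81. All 3 calls held under each of the 22 alternative settings, with the shHIF adjusted p between 0.0012 and 0.0218.

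Because MXI1 is the member that moved most, its annotated upstream windows are shown, with that of MXD1, the second member that fell in Sharp1. The windows of MNT and MLX, which hold a full E-box, are shown too. The MXD4 window also holds a full E-box and is not shown, and MXD4 has no expression value here. Each window is the 250 bases before a start site, 5′ to 3′ on the gene's strand, from RefSeq on GRCh38.p14, with motif matches in capitals. The letters searched on both strands were CACGTG (E-box), ACGTG (the core of a hypoxia response element, which lies inside CACGTG) and GCGTG (the other form of that core).
MXI1 window 1, chr10:110207355-110207604, plus strand: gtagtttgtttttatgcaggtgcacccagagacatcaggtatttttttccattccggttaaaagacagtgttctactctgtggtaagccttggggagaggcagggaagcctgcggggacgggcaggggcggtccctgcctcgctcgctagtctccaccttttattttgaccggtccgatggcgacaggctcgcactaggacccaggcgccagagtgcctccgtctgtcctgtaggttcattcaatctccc
MXI1 window 2, chr10:110209981-110210230, plus strand: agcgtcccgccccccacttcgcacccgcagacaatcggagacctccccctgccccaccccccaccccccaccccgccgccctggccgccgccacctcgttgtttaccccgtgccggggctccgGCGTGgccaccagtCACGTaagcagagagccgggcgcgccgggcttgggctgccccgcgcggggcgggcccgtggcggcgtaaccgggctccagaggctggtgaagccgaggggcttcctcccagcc
MXI1 window 3, chr10:110225746-110225995, plus strand: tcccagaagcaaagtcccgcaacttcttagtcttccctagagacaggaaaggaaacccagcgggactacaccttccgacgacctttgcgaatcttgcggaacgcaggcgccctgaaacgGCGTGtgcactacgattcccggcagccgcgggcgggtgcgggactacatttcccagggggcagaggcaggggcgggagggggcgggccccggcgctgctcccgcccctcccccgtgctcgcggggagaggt
MXD1, chr2:69914859-69915108, plus strand: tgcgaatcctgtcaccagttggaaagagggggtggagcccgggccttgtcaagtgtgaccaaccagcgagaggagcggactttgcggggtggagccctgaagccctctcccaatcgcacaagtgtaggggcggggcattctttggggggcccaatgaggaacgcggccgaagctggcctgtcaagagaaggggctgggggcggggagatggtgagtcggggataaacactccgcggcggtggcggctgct
MNT, chr17:2401061-2401310, minus strand: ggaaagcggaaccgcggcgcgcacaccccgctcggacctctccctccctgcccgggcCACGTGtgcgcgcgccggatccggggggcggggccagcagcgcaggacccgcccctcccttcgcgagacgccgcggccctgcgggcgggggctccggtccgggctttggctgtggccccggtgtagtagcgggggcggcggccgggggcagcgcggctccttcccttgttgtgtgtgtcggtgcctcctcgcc
MLX, chr17:42566850-42567099, plus strand: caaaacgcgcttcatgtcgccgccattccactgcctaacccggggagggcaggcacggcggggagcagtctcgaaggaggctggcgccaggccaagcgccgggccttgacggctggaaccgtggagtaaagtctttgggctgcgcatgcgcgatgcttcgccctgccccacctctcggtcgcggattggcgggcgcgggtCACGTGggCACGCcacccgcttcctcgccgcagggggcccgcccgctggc

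MXI1 window 2 holds ACGTG on the minus strand 109 to 113 bases before the start and GCGTG on the plus strand 123 to 127 bases before it. MXI1 window 3 holds GCGTG at 127 to 131 bases, and window 1 holds none of the motifs. MNT has CACGTG at 188 to 193 bases and MLX at 45 to 50 bases before the start, the latter beside a minus-strand GCGTG. The MXD1 window holds none of the 3 motifs. Of 35116 windows of this length, 6.34% hold CACGTG, 18.5% ACGTG and 32.2% GCGTG. Windows were matched for 9 of the 10 listed genes, MXD4 among them and MYC not. Of these 14 windows, 3 hold CACGTG (MNT, MLX and MXD4, the last at 233 to 238 bases), 6 ACGTG and 7 GCGTG. A match describes the letters and is not a measured binding site.

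MXD1, a repressor partner of MAX that rises as cells differentiate, was the second member that fell in Sharp1. Its brightest probe set (228846_at) read 6.95, 7.11, 7.06 and 7.11 in shGFP and 6.46, 6.51, 6.58 and 6.58 in Sharp1. In shHIF it read 7.36, 7.35, 7.49 and 7.47. The 3 groups did not overlap, with Sharp1 lowest and shHIF highest. It fell by 0.52 in Sharp1 (SE 0.07, limma adjusted p = 5.42e-06), 1.44-fold, and rose by 0.36 in shHIF (SE 0.07, limma adjusted p = 0.00053), 1.28-fold. A second probe set (226275_at) gave a like fall in Sharp1, from 7.17 ± 0.11 to 6.58 ± 0.11 (SD, n = 4, limma adjusted p = 5.69e-06). It did not share the shHIF rise: the difference there was 0.05 (95% interval -0.12 to 0.22, limma adjusted p = 0.728). A dim probe set (206877_at) was not called in either comparison. With the mean of the MXD1 probe sets in place of the brightest, the shHIF difference was 0.14 and was not called (limma adjusted p = 0.105, range over the alternatives 0.000298 to 0.105).

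MXD3, a MAX-binding repressor whose mRNA is known to peak in proliferating cells, read 8.33, 8.35, 8.49 and 8.45 in shGFP, with 1 probe set (221250_s_at). In shHIF it read 8.60, 8.51, 8.63 and 8.60, all above shGFP, and in Sharp1 8.37, 8.28, 8.42 and 8.36, which overlapped shGFP. It rose by 0.18 in shHIF (SE 0.06, limma adjusted p = 0.0303). That call was lost in 8 of the alternatives (limma adjusted p from 0.00971 to 0.140 over all), among them without shGFP array A (0.110) or B (0.0948), and without shHIF array A (0.0653), C (0.0683) or D (0.0579). The Sharp1 difference was -0.05 (95% interval -0.17 to 0.07, limma adjusted p = 0.675).

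**Figure D2:**
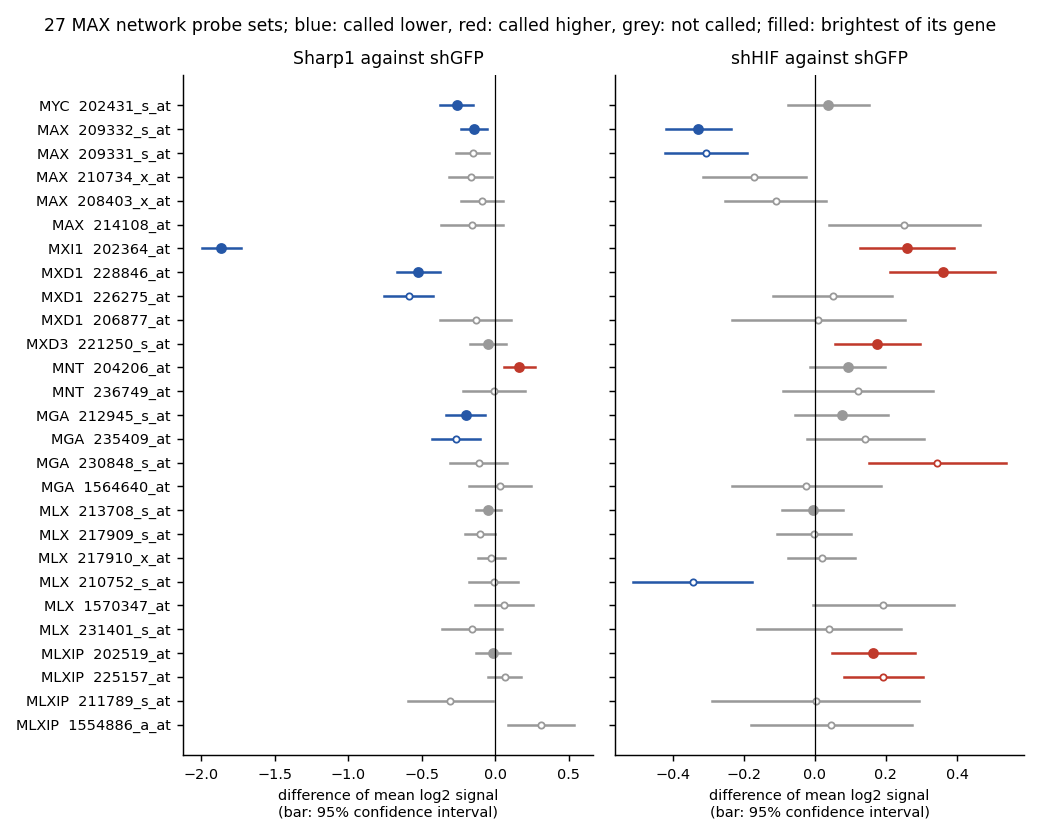
Difference of mean log2 signal from shGFP for each of the 27 network probe sets in Sharp1 (left) and shHIF (right), with 95% confidence intervals, filled points marking the brightest probe set of a gene and colours marking calls, on x axes that differ between the panels. The MXI1 point at -1.86 stands apart on the left, followed by the MXD1 points at -0.52 and -0.59, while on the right the differences run from -0.34 to 0.36.

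MYC, the activator at the centre of the network, was lower in Sharp1 and did not pass the test in shHIF. Its single probe set (202431_s_at) read 11.56, 11.56, 11.49 and 11.43 in shGFP and 11.35, 11.10, 11.24 and 11.31 in Sharp1. In shHIF it read 11.53, 11.47, 11.48 and 11.72. All 4 Sharp1 arrays lay below all shGFP and shHIF arrays, with array B lowest, while shHIF overlapped shGFP and only its array D stood above. MYC fell by 0.26 in Sharp1 (SE 0.05, 95% interval -0.38 to -0.15, limma adjusted p = 0.000957), 1.20-fold, and the call held under all 22 alternatives (0.000119 to 0.0249), with a difference of -0.21 without Sharp1 array B. The shHIF difference was 0.04 (95% interval -0.08 to 0.15, limma adjusted p = 0.694), and -0.037 without shHIF arrays A and D. Sharp1 lay 1.23-fold below shHIF directly (limma adjusted p = 0.000124).

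MAX, the shared partner, fell in shHIF. Its brightest probe set (209332_s_at) read 10.49, 10.49, 10.52 and 10.54 in shGFP and 10.10, 10.21, 10.26 and 10.16 in shHIF. In Sharp1 it read 10.31, 10.41, 10.34 and 10.40. The 3 groups did not overlap, with shHIF lowest and Sharp1 between. It fell by 0.33 in shHIF (SE 0.04, limma adjusted p = 3.81e-06), 1.26-fold. The call held under every alternative, but the difference was -0.13 (limma adjusted p = 0.0291, the highest of the alternatives) with the mean of the MAX probe sets. A second probe set (209331_s_at) fell by 0.31 (limma adjusted p = 0.000192). The other three were not called in shHIF: 210734_x_at at -0.17, 208403_x_at at -0.11 and 214108_at at 0.25 (limma adjusted p = 0.0856). Thus the probe sets of MAX differed in sign there, and 214108_at was called higher without shGFP array D (limma adjusted p = 0.0485) or without shHIF array A (0.0340).

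In Sharp1 all 5 MAX probe sets lay between -0.17 and -0.09, and only 209332_s_at was called, at -0.14 (SE 0.04, limma adjusted p = 0.0221). This call was lost in 6 alternatives (limma adjusted p from 0.00861 to 0.104 over all): centring, no trend, and without Sharp1 array A (0.0798), Sharp1 array C (0.0676), shGFP array C (0.0552) or shGFP array D (0.0561). MAX 209331_s_at, at -0.15, missed the threshold (limma adjusted p = 0.0577, range 0.0233 to 0.161) and passed without shGFP array B (0.0233) or shHIF array D (0.0443).

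MNT, a broadly expressed repressor that binds MAX and MLX, was the member called higher in Sharp1. Its brightest probe set (204206_at) read 9.14, 9.17, 9.05 and 9.22 in shGFP, and 9.26, 9.28, 9.41 and 9.29 in Sharp1. In shHIF it read 9.23, 9.23, 9.25 and 9.25. Sharp1 lay above both other groups without overlap. It rose by 0.16 (SE 0.05, limma adjusted p = 0.0255), and the call was lost in 5 alternatives (0.0114 to 0.396 over all), among them without Sharp1 array C (0.119), shGFP array A (0.0655) or shGFP array C (0.111). The shHIF difference was 0.09 (limma adjusted p = 0.230). The second probe set (236749_at) differed by -0.0078 in Sharp1 (limma adjusted p = 0.979).

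MGA, a large MAX partner that binds both E-boxes and T-box sites and represses germ-cell genes, fell in Sharp1 by 2 of its 4 probe sets. The brightest (212945_s_at) read 8.20, 8.14, 7.97 and 8.01 in shGFP and 7.90, 7.79, 7.92 and 7.89 in Sharp1, all below shGFP. It fell by 0.20 (SE 0.06, limma adjusted p = 0.0264), and the call was lost in 5 alternatives (0.0140 to 0.126 over all), among them without Sharp1 array B (0.0816), shGFP array A (0.126) or shGFP array B (0.0872). The second (235409_at) fell by 0.27 (limma adjusted p = 0.0188, range 0.00699 to 0.0920), with the groups overlapping, and was not called without Sharp1 array B (0.0898), shGFP array A (0.0920) or shGFP array B (0.0528). The third (230848_s_at) read 7.32, 7.49, 7.15 and 7.58 in shGFP and 7.74, 7.86, 7.69 and 7.62 in shHIF, all above shGFP, and rose by 0.34 there (limma adjusted p = 0.00842). It differed by -0.11 in Sharp1 (limma adjusted p = 0.518). Neither of the first and second MGA probe sets was called in shHIF, at 0.08 and 0.14, so the shHIF rise was seen by 1 probe set. The fourth (1564640_at) lay at the 1.94th percentile of signal and was not called.

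MLX, the partner of the glucose-sensing factors, was not called by its brightest probe set (213708_s_at) in either comparison. Its 12 values lay between 10.19 and 10.35, and the difference was -0.05 in Sharp1 (95% interval -0.13 to 0.04) and -0.0060 in shHIF (95% interval -0.09 to 0.08). One other MLX probe set (210752_s_at) read 7.37, 7.58, 7.47 and 7.51 in shGFP and 6.94, 7.34, 7.24 and 7.04 in shHIF, all below shGFP, with arrays A and D lowest. It fell by 0.34 (limma adjusted p = 0.00259, range 0.000594 to 0.108), and without shHIF arrays A and D the difference was -0.19 and was not called (0.108). The other four MLX probe sets were not called.

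MLXIP, the cytoplasmic and mitochondrial glucose sensor that enters the nucleus with MLX, rose in shHIF by 2 of its 4 probe sets. The brightest (202519_at) read 9.47, 9.39, 9.54 and 9.29 in shGFP, 9.49, 9.62, 9.57 and 9.68 in shHIF and 9.41, 9.34, 9.44 and 9.43 in Sharp1. The shHIF and shGFP groups overlapped, since shGFP array C lay above shHIF array A. Its rise of 0.16 (limma adjusted p = 0.0389, range 0.0169 to 0.209) was lost in 11 of 22 alternatives, among them without shGFP array B (0.0994), shGFP array D (0.152), shHIF array B (0.0887) or shHIF array D (0.117). The second (225157_at) rose by 0.19 in shHIF (limma adjusted p = 0.0103) and was called under every alternative (0.00464 to 0.0490). Its shHIF and shGFP groups overlapped too, since shGFP array A lay just above shHIF array A. In Sharp1 these probe sets differed by -0.016 and 0.06 and were not called. Both others lay at or below the 31.9th percentile of signal and were not called.

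Between Sharp1 and shHIF directly, MXI1 and MXD1 had the largest differences among the 27 probe sets. The difference of Sharp1 from shHIF was -2.12 for MXI1, -0.88 and -0.64 for MXD1 (228846_at and 226275_at) and -0.23 for MXD3 (limma adjusted p = 0.00396). The 3 brighter MGA probe sets were all lower in Sharp1 than in shHIF, at -0.28 (212945_s_at, limma adjusted p = 0.00136), -0.41 (235409_at) and -0.46 (230848_s_at). With the mean of the MXD1 probe sets the difference was -0.55 and was still called. MNT differed by 0.07 and was not called (limma adjusted p = 0.326). MAX (209332_s_at) was higher in Sharp1 by 0.18 (limma adjusted p = 0.00192), but 214108_at was lower, at -0.41 (limma adjusted p = 0.00306). MAX 209331_s_at was higher by 0.15 (limma adjusted p = 0.0424), a call lost in 9 alternatives, among them without shHIF array A (0.0961), B (0.0920) or C (0.0752), Sharp1 array A (0.0698), C (0.0950) or D (0.0931), or shGFP array A (0.0556). Over the mean of the MAX probe sets the difference was -0.011. MLX 210752_s_at was higher in Sharp1 by 0.33 (limma adjusted p = 0.0024), and by 0.18 with no call (0.110) without shHIF arrays A and D. MLXIP 202519_at was lower, at -0.18 (limma adjusted p = 0.0171), a call that was lost in 5 of 22 alternatives (0.00854 to 0.244 over all): centring, no trend, the mean of the MLXIP probe sets (-0.088, 0.244), and without Sharp1 array B (0.0501) or shHIF array D (0.0596).

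**Figure D3:**
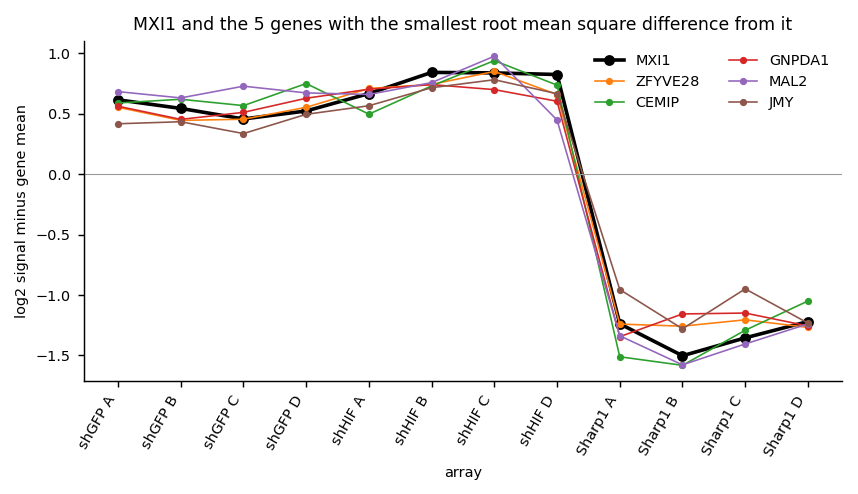
Log2 signal of MXI1 (black) and of the 5 genes whose centred values over the 12 arrays were closest to it, each minus its own mean, by array in 3 groups of 4. All 6 genes lie above 0 in the shGFP and shHIF arrays and below 0 in the 4 Sharp1 arrays, which follows from the choice by closeness.

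Among 19775 genes, the 5 whose centred values over the 12 arrays were closest to those of MXI1 were ZFYVE28, CEMIP, GNPDA1, MAL2 and JMY. Their root mean square difference from MXI1 was 0.107 for ZFYVE28 and 0.186 for JMY, beside a median of 0.942 over all genes. Genes picked by closeness over the same arrays have small distances and like Sharp1 differences through that choice. The Sharp1 differences of these 5 lay between -2.07 (MAL2) and -1.52 (JMY), and with the mean of all probe sets of a gene were -1.03 for CEMIP and -1.16 for ZFYVE28. The 3 closest to MYC were PPP4R3A (0.0583), SRGAP1 (0.0589) and SPEN (0.0607), beside a median of 0.205. The Sharp1 call of SRGAP1 (-0.20) was lost in 7 of 15 alternatives, among them without Sharp1 array B or C and without shGFP array A, B or C, where limma adjusted p reached 0.198.

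The other genes of the pathway were taken as 10 lists with 129 measured genes, read through 1 probe set per gene and tested over all 19775 genes. In Sharp1 53 of the 129 were called, 30 higher and 23 lower, beside 27.2% of all genes (15.3% higher, 11.8% lower). In shHIF 62 were called, 44 higher and 18 lower, beside 30.8% (17.6% higher, 13.2% lower). By list the called share ran from 0% (the 3 MYC and MLX relatives outside the members) to 65% (metabolic genes) in Sharp1. In shHIF it ran from 29.4% (coactivators) to 66.7% (the 3 relatives). Dim probe sets are called less often, and the lists were not matched to all genes for signal. The median of all genes was -0.0018 in Sharp1 and 0.047 in shHIF.

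Of the 20 measured metabolic, nucleotide and polyamine genes that MYC is known to activate, 8 were called higher and 5 lower in Sharp1 (median 0.09). TFRC, the transferrin receptor, rose by 0.53 and SRM, spermidine synthase, by 0.38, while HSPD1, a mitochondrial chaperone, fell by 0.24 and LDHA, lactate dehydrogenase A, by 0.17. In shHIF 8 were called higher and 3 lower (median 0.06), with SRM up by 0.39 and PHGDH, the first enzyme of serine synthesis, down by 0.48. PHGDH rose by 0.28 in Sharp1 (limma adjusted p = 0.0013), and LDHA fell by 0.20 in shHIF. HSPD1 rose by 0.14 in shHIF, a call lost with the mean of its probe sets (limma adjusted p = 0.0622). Of the 19 measured ribosome biogenesis genes, 5 were called higher and 2 lower in Sharp1 (median 0.03). In shHIF 8 were higher and 0 lower (median 0.11), with MRTO4, a ribosome assembly factor, up by 0.28. PES1, a subunit of the ribosome assembly complex PeBoW, fell by 0.25 in Sharp1 and rose by 0.27 in shHIF. BYSL rose by 0.25 in Sharp1 and by 0.26 in shHIF. RRP12 rose by 0.44 in Sharp1 and by 0.31 in shHIF. With the mean of its probe sets neither RRP12 rise was called (0.041 and 0.067, limma adjusted p = 0.650 and 0.351).

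Of the 15 measured cell cycle and translation genes that MYC activates, 3 were called higher and 2 lower in Sharp1 (median 0.06), and 7 and 2 in shHIF (median 0.13). CCND2, cyclin D2, rose from 6.26 to 8.23 in Sharp1 (SE 0.07, limma adjusted p = 5.35e-17), 3.91-fold, and 2.57-fold in shHIF. CCNE1, cyclin E1, rose 2.44-fold in shHIF (limma adjusted p = 6.04e-15) and by 0.36 in Sharp1. The Sharp1 rise of CCNE1 was not called with the mean of its probe sets (0.062, limma adjusted p = 0.506). CDK4, the kinase that cyclin D activates, fell by 0.30 in Sharp1 and rose by 0.13 in shHIF. That rise lost its call in several settings, such as without shGFP array A (limma adjusted p = 0.0924). EIF2S1, a translation initiation subunit, was counted as lower in Sharp1 by its brightest probe set (-0.18), but 2 of its 3 probe sets were called higher and their mean differed by 0.076.

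Of the 13 measured genes that MYC is known to repress, 5 were called higher and 3 lower in Sharp1 (median 0.11), and 5 and 1 in shHIF (median 0.14). GADD45A, a stress-induced growth arrest gene, rose by 0.84 in Sharp1 (SE 0.03, limma adjusted p = 3.61e-16) and by 0.49 in shHIF. THBS1 rose by 0.66 in Sharp1 (limma adjusted p = 3.46e-08), where 6 of its 7 probe sets were called higher. In shHIF its brightest probe set was not called (0.14), though 5 of the 7 were called higher. NDRG1, which MYC represses and hypoxia is known to induce, fell by 0.43 in Sharp1 and by 1.02 in shHIF. CDKN1B, the cell cycle inhibitor p27, fell by 0.29 in Sharp1 and rose by 0.60 in shHIF, and its direct difference of Sharp1 from shHIF was -0.89 (limma adjusted p = 6.54e-13).

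Of the 7 measured targets of MLXIP and MLXIPL, 0 were called higher and 3 lower in Sharp1 (7 tested, median -0.02), and 3 higher and 1 lower in shHIF (median 0.09). TXNIP, which restrains glucose uptake, fell by 0.23 in Sharp1 and rose from 11.10 to 11.66 in shHIF (limma adjusted p = 3.64e-12), 1.48-fold. ARRDC4, its arrestin-fold relative, rose from 6.10 to 7.57 in shHIF (limma adjusted p = 4.97e-12), 2.76-fold, and did not pass the test in Sharp1 (0.06). KLF10, a zinc finger repressor, fell from 9.47 to 8.04 in Sharp1 (SE 0.06, limma adjusted p = 1.17e-15), 2.70-fold, and rose by 0.48 in shHIF. The direct difference of Sharp1 from shHIF was -1.92 for KLF10 (limma adjusted p = 2.94e-18).

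Of the 11 measured SIN3 and NCOR corepressor genes, through which the MXD proteins repress, 1 was called higher and 3 lower in Sharp1 (median -0.04), and 3 and 3 in shHIF (median 0.09). RBBP4, a histone-binding subunit, fell by 0.34 in Sharp1, and SIN3B, a scaffold of the complex, fell by 0.37 in shHIF. Of the 17 MYC coactivators and partners, 5 were higher and 1 lower in Sharp1 (median 0.11), and 3 and 2 in shHIF (median 0.0066). KAT2A, an acetyltransferase that MYC recruits, rose by 0.38 in Sharp1, and TRRAP, the scaffold MYC binds, fell by 0.24. BRCA1 rose by 0.34 in Sharp1 and by 0.26 in shHIF.

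Of the 16 measured regulators of MYC turnover, 1 was called higher and 2 lower in Sharp1 (median -0.0049), and 3 higher and 6 lower in shHIF (median -0.014). The Sharp1 count of 3 became 6 without shGFP array D and 5 without shHIF array D. USP37, a deubiquitinase of MYC, fell by 0.53 in Sharp1 and by 0.44 in shHIF. In shHIF SKP2, a ubiquitin ligase subunit that is also in the coactivator list, fell by 0.49 and USP13, a deubiquitinase, by 0.64, while FBXO32, a ubiquitin ligase subunit that targets MYC, rose by 0.65 and STUB1 by 0.30. FBXL14, another ligase subunit, fell by 0.73 in shHIF and rose by 0.31 in Sharp1, but neither call held with the mean of its probe sets (limma adjusted p = 0.147 and 0.139).

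Of the 9 other E-box factors, 2 were called higher and 2 lower in Sharp1 (median -0.03), and 2 and 1 in shHIF (median 0.04). SREBF1, the regulator of fatty acid synthesis, fell by 0.58 in Sharp1 and by 0.69 in shHIF, and MITF, of the TFE family, rose by 0.35 and 0.32. TFE3 rose by 0.44 in Sharp1 and by 0.18 in shHIF. Neither TFE3 rise was called with the mean of its probe sets (limma adjusted p = 0.0916 and 0.191). Of the 3 relatives outside the members, 0 of 3 were called in Sharp1 and 2 of 3 higher in shHIF (median 0.28). Those were MYCN (0.28, limma adjusted p = 0.0363) and MLXIPL (0.32, limma adjusted p = 0.0168). The count of 2 became 0 without shGFP array B and 1 without shGFP array A, C or D or without shHIF array A, B or D.

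With the mean of all probe sets of a gene in place of the brightest, several called values of these lists were smaller by over 1.5 times. In Sharp1 they became 0.81 for CCND2, -0.33 for SREBF1, -0.20 for RBBP4, -0.16 for PES1 and 0.25 for TFRC, while TXNIP grew to -0.36. In shHIF they became 0.63 for CCND2, 0.72 for CCNE1, -0.32 for SREBF1, 0.16 for MITF, -0.23 for SIN3B and 0.25 for FBXO32, all still called. MYCN was not called in shHIF (0.14, limma adjusted p = 0.0910), nor were SAP18 of the corepressor list (0.0059, 0.945) and TFRC (0.15, 0.236). RRP12 and TFE3 lost their calls in both comparisons. These genes stay in the list counts. The shHIF fall of USP37 was -0.26 without shHIF arrays A and D. Of 115 calls of list genes against shGFP, 2 had another probe set called the other way, EIF2S1 in Sharp1 and HUWE1, a ubiquitin ligase of the turnover list, in shHIF.

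**Figure D4:**
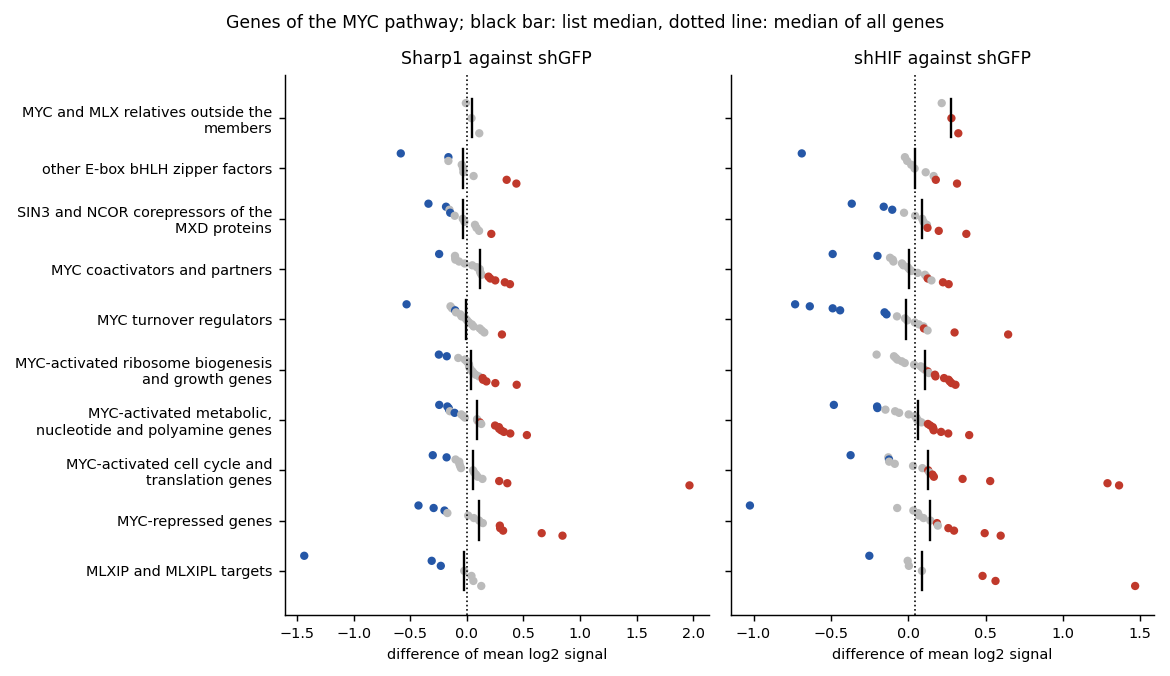
Difference of mean log2 signal from shGFP for each measured gene of the 10 lists in Sharp1 (left) and shHIF (right), with red and blue points for genes called higher and lower, grey points for genes not called, black bars at list medians and a dotted line at the median of all genes. KLF10 at -1.44 and CCND2 at 1.97 are the extremes on the left, and NDRG1 at -1.02 and ARRDC4 at 1.47 on the right.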

How the data were processed

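Total gene expression was measured on 12 one-colour arrays of MDA-MB-231 cells, 4 per group. The authors deposited log2 signals per probe set, made with RMA per the submitters' processing notes (version not given in the sources used here), with no background or detection calls. RMA quantile-normalizes arrays together and compresses dim signals.

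Of 54675 probe sets, controls included, 41097 had 1 gene symbol, 1801 several and 11777 none. The 62 controls were left out, which gave 54613 tested. Of the single-symbol probe sets, 41043 matched the RefSeq gene table (GRCh38.p14) by gene ID. limma 3.58.1 in R 4.3.3 was fitted to all 12 arrays with an intensity trend, with Benjamini-Hochberg adjustment at 0.05. The lists used the brightest probe set of each of 19775 genes. On simulated data, 20% of changes of 0.25, 78% of 0.5 and 100% of 1 or more were called. Only 50 probe sets were changed per size there, and 160 of 54613 were called, 11 of them false. In the data 9875 were called in Sharp1 against shGFP, so the adjusted threshold is less strict and these shares need not hold. The number of arrays limits the precision.

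The members and lists were chosen with earlier results of these data known. Named were all member probe sets, BHLHE41, HIF1A and EPAS1, the 5 genes nearest MXI1 and the 3 nearest MYC. From each list, the rule named by size up to 2 called rises and 2 called falls per comparison with shGFP. Some genes so named are not printed, and some are given for 1 comparison only. The 22 alternatives were no trend, robust moderation, centring, no dim probe sets, only the groups compared, array weights, a replicate block, 1 probe set per gene, the mean probe set per gene, leaving out shHIF A and D, and leaving out each of the 12 arrays. Member counts were also made without _x_at probe sets, which can cross-hybridise.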

Additional observations from a re-analysis of the deposited data

Results flagged for a closer look

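In 5 of 81 member groups of 4 arrays 1 array lay far from the others, and chance flags about 1 in 20 groups. MXI1 202364_at was 9.56 in shHIF array A, below the other three at 9.72 to 9.73. MAX 209331_s_at was 8.62 in shHIF array D, above 8.50 to 8.52. MLX 213708_s_at was 10.3 in shHIF array D, above 10.27 to 10.28. MGA 235409_at was 7.52 in Sharp1 array B, below 7.80 to 7.86. MGA 1564640_at, a dim probe set, was 2.98 in shGFP array B, above 2.73 to 2.76.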

How the results depend on the processing

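Over 48 results of the 16 member probe sets that were brightest or called, and up to 22 settings, 935 of 1014 recomputed values kept direction and call, 56 lost the call, 10 gained it and 13 turned sign. Of the other 11 probe sets, never called as reported, 5 had a call under some alternative. Without the intensity trend, 5 member probe sets were called in Sharp1 against shGFP in place of 8, and leaving out 1 array gave 5 to 10. Leaving out 1 array gave 7 to 10 in shHIF and 12 to 16 directly, and over all probe sets 8460 to 10424, 9851 to 12718 and 13947 to 16416. With 1 probe set per gene, 5370, 6095 and 7588 genes were called in Sharp1, in shHIF and directly, with 6, 5 and 7 of 9 members, and with the mean probe set 4807, 5430 and 7122, with 4, 3 and 5 of 9 members. Of the 13 member signs that turned, 12 were of differences not called, and the other was MAX 209332_s_at directly (mean of probe sets -0.011). The others were MLX 210752_s_at in Sharp1 (centred 0.0085, leaving out 1 array -0.047 to 0.021), MLX 213708_s_at in shHIF (-0.024 to 0.0017), MLXIP 202519_at in Sharp1 (centred 0.0029, mean 0.013, -0.061 to 0.023), MNT 204206_at directly (mean -0.029) and MYC in shHIF (-0.037 without shHIF A and D, -0.019 to 0.064). The causes were not tested. With the replicate letter as a block, 9442, 11603 and 15391 probe sets and 8, 8 and 13 members were called, and MLXIP 202519_at lost its call in shHIF (limma adjusted p = 0.0565). The 12 correlations between arrays of the same letter lay between -0.16 and 0.13, and 1 of 12 arrays correlated best with its own letter. The labels do not say whether arrays of one letter were handled together, and these values cannot settle it. For the pathway lists, leaving out 1 array (chosen after seeing the data) gave 49 to 58, 55 to 63 and 62 to 69 called genes, and leaving out shHIF A and D 61, 62 and 60. Of 90 calls of named genes outside the network, 23 changed under at least 1 of 15 settings, and EIF2S1 in Sharp1 turned sign (mean of probe sets 0.076). Dim probe sets have compressed differences.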
